A study of Mus musculus with 6 samples.

Results

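The genes described here are 10 genes of vessel sprouting and stabilisation, chosen by name. They are the angiopoietins Angpt1 and Angpt2, the Tie receptors Tek and Tie1, the phosphatase gene Ptprb, and Apln, Aplnr, Esm1, Unc5b and Pdgfb. Of these, Apln, Esm1, Unc5b and Pdgfb are associated with the tip cells that lead new sprouts, and Aplnr encodes the apelin receptor. All 10 were found among the 17464 gene symbols measured, and 9 of them passed the filter on low values that left 11516 genes for testing. Angpt1 did not pass it, because it was below an FPKM of 1 in each of the 6 libraries. FPKM, the deposited unit, is the number of fragments scaled by gene length and by the library's total, so levels can be set side by side between genes.

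RNA came from mammary glands of C57BL/6 mice of WT genotype at postnatal day 45. The untreated group and the group given recombinant mouse CXCL14 protein, a chemokine, held 3 samples each. The sources used here state no dose, route or duration of treatment, no pooling of animals and no sorting of cells, nor do they say whether each sample was a different animal. P-values therefore cover only the variation among these 6 samples, some of which may be technical.

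Angiopoietins are secreted ligands of Tek, a receptor tyrosine kinase of endothelial cells also called Tie2. Angpt1, made mostly by cells around the vessel and by platelets, activates Tek and favours quiet, tight vessels, whereas Angpt2, released by endothelial cells themselves, can block that signal during remodelling. Tie1 is a related receptor that pairs with Tek, and Ptprb, an endothelial phosphatase also called VE-PTP, removes phosphate from Tek. Apelin and its receptor, the proteoglycan endocan encoded by Esm1, the netrin receptor Unc5b and the growth factor PDGF-B, which draws pericytes to the vessel, are all known from sprouting endothelium.

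The series title speaks of endothelial cells, whereas the labels name the whole gland as the source. All 24 of 24 blood endothelial markers passed the filter, with a median of 26.4 to 50.6 FPKM over the list in the untreated libraries and 28.1 to 81.1 FPKM in the CXCL14 libraries. The 5 B-cell markers had medians of 193 to 224 FPKM and 168 to 211 FPKM in the same groups, and the 9 luminal epithelial markers medians of 3.82 to 15.9 FPKM and 4.80 to 9.10 FPKM. Depth was between 15245981 and 16983352 recovered reads per library. Untreated replicate 1 and CXCL14 replicate 1 stood close to each other and apart from the rest: a chi-square of their recovered reads averaged 2.42 a gene, against about 1 for sampling noise and 25.7 to 98.8 for the other 14 pairs of libraries. For the 10 genes the ratio of CXCL14 replicate 1 to untreated replicate 1 ran from 0.667, in Angpt1, to 1.10, in Unc5b. Whether a label was exchanged or both libraries came from the same tissue was not tested, and each difference between 3 and 3 samples takes the labels as given. Results are therefore also given without CXCL14 replicate 1 and without both libraries numbered 1. Dropping a treated library that looks like a control tends by itself to widen the gap between groups, though not for every gene.

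RefSeq promoter sequences, of assembly GRCm38.p6 and not of the mm8 build that the submitters name, were matched for 5 of the 10 genes, Tek, Tie1, Apln, Esm1 and Unc5b. The 250 bases before the start are shown for Tek and Tie1, receptor genes whose levels moved together, and for Apln, whose level departed from theirs. Capitals mark GGAA or its other strand TTCC, the core bound by ETS factors, a family of regulators of endothelial genes.
Tek promoter, chr4:94739039-94739288, plus strand: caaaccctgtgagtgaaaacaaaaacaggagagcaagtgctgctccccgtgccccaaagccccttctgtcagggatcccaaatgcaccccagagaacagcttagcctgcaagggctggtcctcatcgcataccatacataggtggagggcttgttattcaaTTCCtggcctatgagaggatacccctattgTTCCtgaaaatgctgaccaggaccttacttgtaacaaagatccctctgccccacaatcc
Tie1 promoter, chr4:118489850-118490099, minus strand: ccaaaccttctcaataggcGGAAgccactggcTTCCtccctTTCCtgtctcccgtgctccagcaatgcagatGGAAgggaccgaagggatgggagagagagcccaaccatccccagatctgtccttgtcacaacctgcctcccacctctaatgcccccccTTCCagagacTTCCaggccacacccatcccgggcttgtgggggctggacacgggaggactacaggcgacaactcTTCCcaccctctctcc
Apln promoter, chrX:48034854-48035103, minus strand: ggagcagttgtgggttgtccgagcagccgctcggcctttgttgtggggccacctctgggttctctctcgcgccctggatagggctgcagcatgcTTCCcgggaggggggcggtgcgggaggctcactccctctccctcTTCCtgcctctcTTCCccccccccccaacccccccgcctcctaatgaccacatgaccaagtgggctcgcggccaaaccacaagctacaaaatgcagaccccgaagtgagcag
The core had 2 matches in the Tek window, 7 in the Tie1 window and 3 in the Apln window, and 93.5% of the 32851 promoter windows of the same length held at least 1 match. A longer ETS motif, CCGGAAG, present in 6.91% of all windows, was searched on both strands, as was a form of the hypoxia core, ACGTG (16.6%). The TATA box letters TATAAA (12.4%) were searched likewise. None of these had a match in any of the 5 windows. Another form of the hypoxia core, GCGTG, was not counted over all windows and is present in the Esm1 and Unc5b windows. GC content was 51.2% for Tek, 60.4% for Tie1 and 65.2% for Apln, beside a median of 52.4% over all windows. A match of letters is a description of the window and not a binding site.

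No gene of the set differed between CXCL14 and untreated glands beyond the spread between libraries. Tek, Tie1, Ptprb, Angpt2, Aplnr, Esm1 and Unc5b had small positive log2 fold changes with wide intervals, Pdgfb lay at 0 within its error, and Apln had the lowest value. Limma-trend, with Benjamini-Hochberg adjustment over all 11516 genes, called 0 of the 9 tested genes, beside 0% of all genes. At an unadjusted p under 0.05 it had 0 of the 9, beside 7.77% of all genes, and voom on recovered reads called 0 of 9 and 0 of all genes, with 903 genes at that unadjusted p. Groups overlapped for all 9, where 13.1% of all genes had groups that did not overlap. With CXCL14 replicate 1 left out 0 of the 9 were called, beside 5.18% of all genes, and with both libraries numbered 1 left out 0 of the 9, beside 0.13%.

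**Figure D1:**
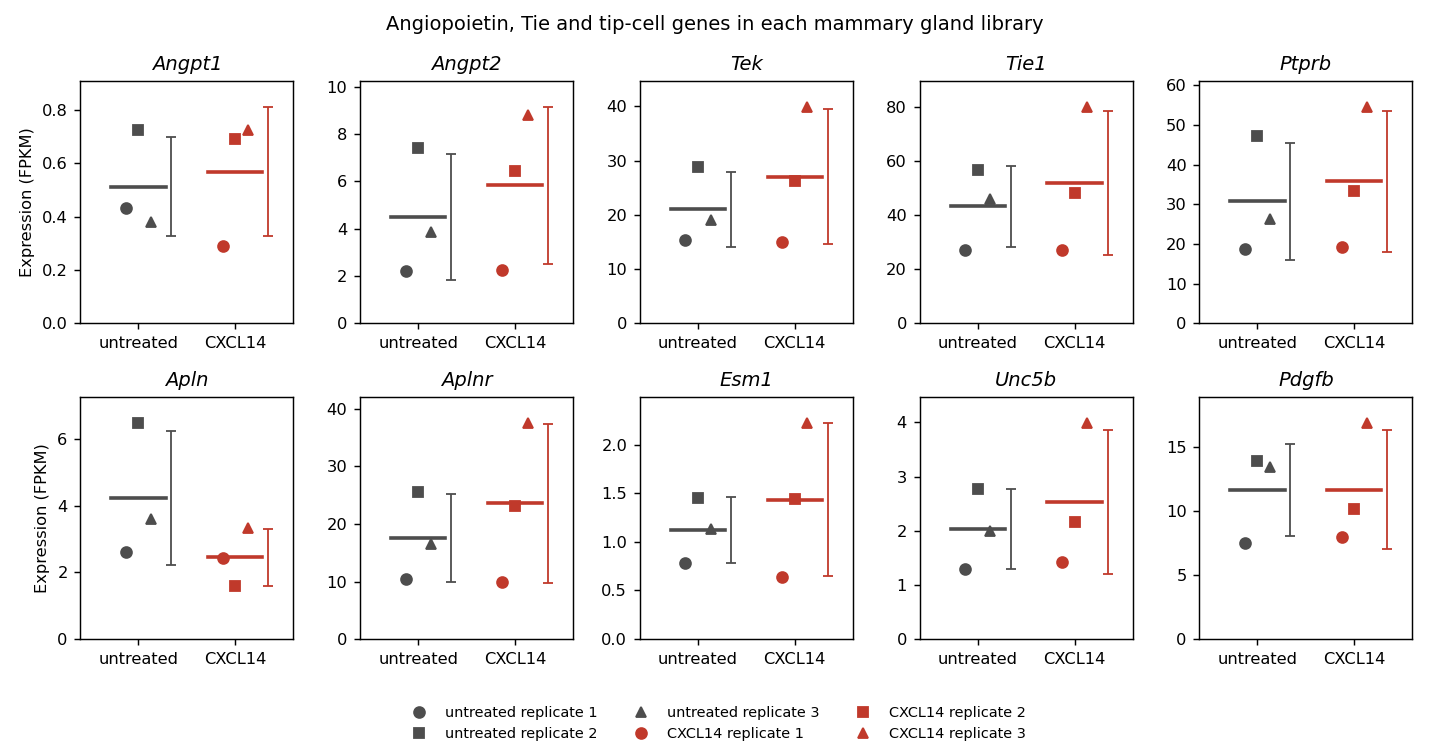
Expression of the 10 genes in FPKM (vertical axes from 0, a scale for each gene) in 3 untreated and 3 CXCL14 libraries. Points are libraries with a symbol for each replicate number, horizontal lines are group means and bars beside them are SDs; the libraries numbered 1 are the lowest or near the lowest in 9 panels, and in the Apln panel CXCL14 replicate 2 is lowest at 1.60 FPKM.

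Among the ligands of Tek, Angpt2 was the more abundant in every library. Without treatment Angpt2 read 2.19, 7.41 and 3.86 FPKM (replicates 1 to 3), against 2.24, 6.45 and 8.78 FPKM with CXCL14 (replicates 1 to 3). The libraries numbered 1 were lowest in their groups, and the untreated range lay almost within the CXCL14 range. The log2 fold change was 0.28 (SE 0.49, 95% interval -0.89 to 1.46, adjusted p = 0.827 by limma-trend). It was 0.75 without CXCL14 replicate 1 (adjusted p = 0.270) and 0.42 without both libraries numbered 1 (adjusted p = 0.487).

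Angpt1 was barely detected, with untreated levels of 0.433, 0.724 and 0.380 FPKM and CXCL14 levels of 0.289, 0.690 and 0.727 FPKM, again in order of replicate number. These values rested on 17 to 47 recovered reads per library. The lowest, in CXCL14 replicate 1, came from 17 reads (exact 95% Poisson interval 9.90 to 27.2), which overlaps that of the 26 reads in untreated replicate 1 (17.0 to 38.1). Such intervals cover counting error only. Group means were 0.513 ± 0.185 FPKM untreated and 0.569 ± 0.243 FPKM with CXCL14 (SD, n = 3 each). With the filter lifted its log2 fold change was 0.047 (SE 0.14, adjusted p = 0.924 by limma-trend).

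The ratio of Angpt2 to Angpt1 is often reported because the ligands compete for Tek. It came to 5.06, 10.2 and 10.2 without treatment, against 7.74, 9.35 and 12.1 with CXCL14. Groups overlapped, and the difference of log2 ratios was 0.24, smaller than the untreated SD of 0.58. The exact two-sided permutation test gave p = 0.7, and with 3 against 3 samples it cannot go below p = 0.1. Without untreated replicate 1, the library with the lowest ratio, the difference was -0.093.

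Both Tie receptors were well expressed, and Tie1 was the most abundant of the 10 genes. Tie1 read 27.1, 56.7 and 45.9 FPKM without treatment, against 27.1, 48.2 and 80.0 FPKM with CXCL14. Tek read 15.3, 28.8 and 19.0 FPKM without treatment, against 15.0, 26.2 and 39.9 FPKM with it. CXCL14 replicate 3 had the highest value of both receptors, and the libraries numbered 1 the lowest. Tek had a log2 fold change of 0.29 (SE 0.37, 95% interval -0.59 to 1.17, adjusted p = 0.759 by limma-trend), and Tie1 had 0.19 (SE 0.42, 95% interval -0.82 to 1.19, adjusted p = 0.867). Without CXCL14 replicate 1 these were 0.64 for Tek (adjusted p = 0.216 by limma-trend) and 0.58 for Tie1 (adjusted p = 0.329).

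Ptprb, the phosphatase that acts on Tek, had untreated levels of 18.6, 47.2 and 26.3 FPKM, against 19.4, 33.4 and 54.5 FPKM with CXCL14. Untreated replicate 2 lay above CXCL14 replicate 2, so the groups overlapped widely. Its log2 fold change was 0.20 (SE 0.44, 95% interval -0.86 to 1.25, adjusted p = 0.866 by limma-trend), and 0.56 without CXCL14 replicate 1 (adjusted p = 0.393). Within a library Tie1, Ptprb and Tek kept near proportions: the ratio of Tie1 to Tek ran from 1.76 to 2.42 and that of Ptprb to Tek from 1.22 to 1.64. The ratio of the ligand gene Angpt2 to Tek ran from 0.143 to 0.258 and was lowest in the libraries numbered 1.

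The apelin receptor and its ligand went different ways in CXCL14 replicates 2 and 3. Aplnr, a G-protein-coupled receptor, read 10.4, 25.6 and 16.6 FPKM without treatment, against 9.97, 23.2 and 37.6 FPKM with CXCL14. For Apln, which encodes the ligand apelin, untreated levels were 2.62, 6.49 and 3.61 FPKM, against 2.45, 1.60 and 3.32 FPKM with CXCL14. CXCL14 replicate 3 was thus the highest of the 6 for the receptor but below untreated replicates 2 and 3 for the ligand, while CXCL14 replicate 2 was the lowest of the 6 for the ligand.

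Apln had a log2 fold change of -0.56 (SE 0.31, 95% interval -1.29 to 0.16, adjusted p = 0.577 by limma-trend), the lowest of the 9, with group means of 4.24 ± 2.01 FPKM untreated and 2.46 ± 0.862 FPKM with CXCL14 (SD, n = 3 each). The untreated value in replicate 1 lay below that of CXCL14 replicate 3, so the groups overlapped. Aplnr had a log2 fold change of 0.31 (SE 0.50, 95% interval -0.87 to 1.50, adjusted p = 0.813). Without both libraries numbered 1 Apln was the 1 gene of the 9 whose groups did not overlap, lower with CXCL14, beside 37.1% of all genes in that direction, at -0.81 (adjusted p = 0.293 by limma-trend). In each fit with a library left out its log2 fold change was negative, between -0.80 and -0.27. Its smallest size came without untreated replicate 2. Without untreated replicate 1 its 95% interval was -1.53 to -0.064 (unadjusted p = 0.038, adjusted p = 0.884 by limma-trend). That fit had 355 of 11516 genes at an unadjusted p under 0.05.

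The ratio of Apln to Aplnr, set out after the values had been seen and therefore not tested, came to 0.252, 0.253 and 0.218 without treatment. With CXCL14 it came to 0.246, 0.0689 and 0.0884. Untreated libraries and CXCL14 replicate 1 had nearly the same ratio even though Aplnr varied 2.47-fold among the untreated libraries, and the remaining CXCL14 libraries lay well below. Relative to the blood endothelial markers given below, 49.2% of all genes were lower in CXCL14 replicates 2 and 3 than in every untreated library. Aplnr followed those markers closely (r = 0.996 over the 6 libraries), so lying below the untreated libraries in such a ratio is not particular to Apln. Apln had 131, 314 and 190 recovered reads in the untreated libraries, against 120, 83 and 179 with CXCL14. The exact 95% Poisson interval of CXCL14 replicate 2 was 66.1 to 103 reads, below those of the untreated libraries, whereas that of CXCL14 replicate 3 (154 to 207) overlapped that of untreated replicate 3 (164 to 219). CXCL14 replicates 2 and 3 also differ from the other libraries in the neutrophil and T-cell markers given further on.

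**Figure D2:**
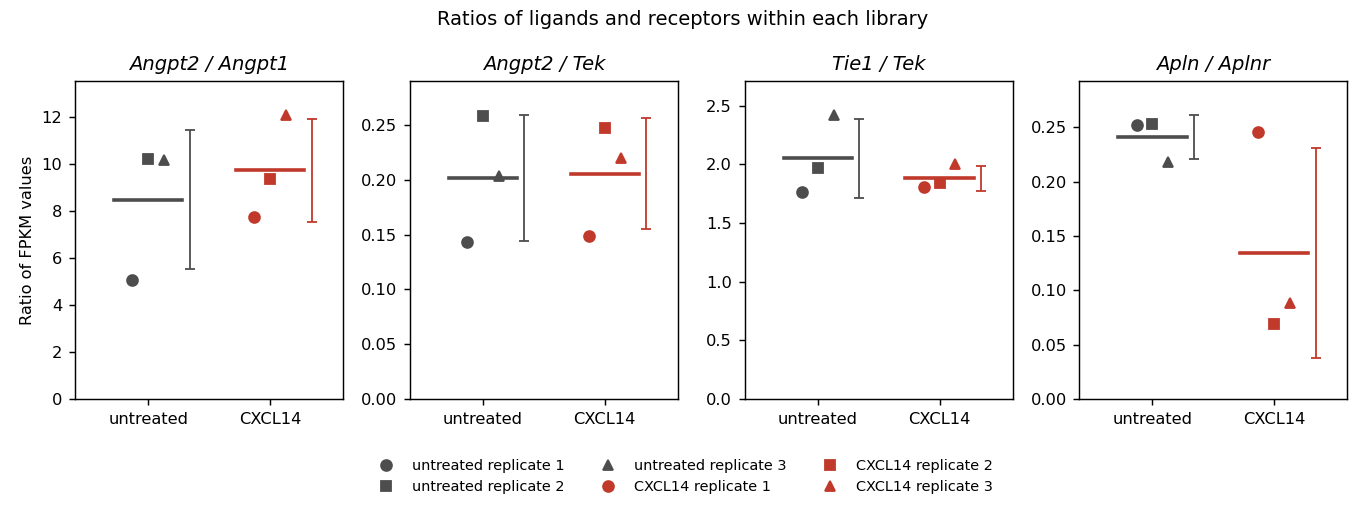
Ratios of FPKM values within each library (vertical axes from 0): Angpt2 to Angpt1, Angpt2 to Tek, Tie1 to Tek and Apln to Aplnr. Points are libraries, lines are group means and bars are SDs; groups overlap in each panel, and in the Apln to Aplnr panel CXCL14 replicates 2 and 3 lie at 0.0689 and 0.0884 below the other 4 libraries, which lie between 0.218 and 0.253.

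Esm1 and Unc5b were low and varied between libraries much as the receptors did. Esm1, which encodes the secreted proteoglycan endocan, read 0.778, 1.46 and 1.14 FPKM without treatment, against 0.641, 1.44 and 2.22 FPKM with CXCL14, from 21 to 80 recovered reads. Unc5b, a netrin receptor, read 1.30, 2.77 and 2.00 FPKM without treatment, against 1.42, 2.17 and 3.99 FPKM with it. For both genes CXCL14 replicate 3 was highest and the libraries numbered 1 lowest, and the groups overlapped. Log2 fold changes were 0.16 for Esm1 (SE 0.27, 95% interval -0.48 to 0.80, adjusted p = 0.825 by limma-trend) and 0.19 for Unc5b (SE 0.30, 95% interval -0.53 to 0.91, adjusted p = 0.815). Without CXCL14 replicate 1 they were 0.41 and 0.43, neither of which passed.

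Pdgfb varied less than the receptors, with untreated levels of 7.54, 14.0 and 13.5 FPKM, against 7.98, 10.2 and 16.9 FPKM with CXCL14. Its group means were 11.7 ± 3.59 FPKM and 11.7 ± 4.66 FPKM (SD, n = 3 each). The log2 fold change of -0.013 (SE 0.31, 95% interval -0.76 to 0.74, adjusted p = 0.989 by limma-trend) changed sign with the scaling, to 0.066 after median-ratio scaling, and to 0.21 without CXCL14 replicate 1. Pdgfrb, the PDGF-B receptor of pericytes, measured 8.57 ± 5.71 FPKM untreated and 7.56 ± 3.87 FPKM with CXCL14 (SD, n = 3 each), which differed by -0.10 in log2 terms (SE 0.46, adjusted p = 0.940 by limma-trend). The ratio of Pdgfb to Pdgfrb ran from 0.923 to 2.31 in the untreated libraries, a wider span than the 1.42 to 1.79 in the CXCL14 libraries.

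**Figure D3:**
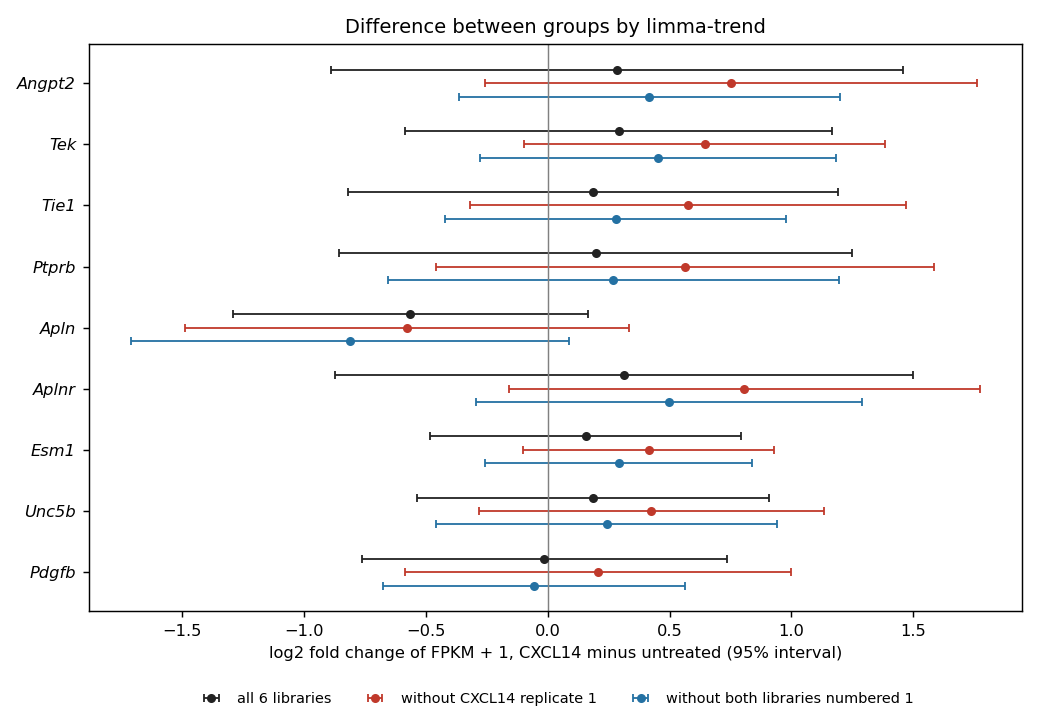
Log2 fold change of FPKM + 1, CXCL14 minus untreated, with 95% intervals from limma-trend for the 9 tested genes, with all 6 libraries, without CXCL14 replicate 1 and without both libraries numbered 1. Every interval includes 0; 7 of the 9 values are positive with all 6 libraries, and Apln is negative in all 3 fits, at -0.56, -0.58 and -0.81.

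By mean level the order was Tie1, Ptprb, Tek, Aplnr, Pdgfb, Angpt2, Apln, Unc5b, Esm1 and Angpt1, from 47.5 FPKM down to 0.541 FPKM. Each of the first 5 genes exceeded the next in all 6 libraries, as did Unc5b over Esm1 and Esm1 over Angpt1. Angpt2 exceeded Apln in 4 of 6 libraries and Apln exceeded Unc5b in 4 of 6, so these neighbours did not differ beyond their spread. Tie1 stood above 92.5% of all measured symbols in mean level, and Angpt1 above 28.9%.

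The spread within groups was as large as any difference between them. The highest untreated library exceeded the lowest by 3.38-fold for Angpt2, 1.87-fold for Tek, 2.09-fold for Tie1 and 2.53-fold for Ptprb, and the CXCL14 libraries spanned 3.93-fold, 2.65-fold, 2.95-fold and 2.82-fold for these genes. Leaving out CXCL14 replicate 3 turned all 7 positive log2 fold changes negative, so that all 9 values were then below 0 with a median of -0.10. Leaving out untreated replicate 1 turned those of Angpt2, Tie1 and Ptprb negative. Over the 9 genes the median was 0.19, beside -0.064 over all genes tested, and without CXCL14 replicate 1 it was 0.56, beside -0.10. Of the 9, 7 were positive, beside 37.2% of all genes. In whole tissue, fewer cells of a type and less RNA per cell cannot be told apart.

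Blood endothelial markers, of which the 10 genes are not part, moved with these levels. Their mean log2(FPKM + 1) came to 4.62, 5.63 and 5.22 without treatment, against 4.67, 5.51 and 6.18 with CXCL14. Positive log2 fold changes were found in 23 of the 24 markers (median 0.25), and 0 passed. Their summed level was 877 to 1733 FPKM in the untreated group and 903 to 2638 FPKM in the CXCL14 group. Vwf, a clotting protein stored in endothelium, had a log2 fold change of 0.92 (SE 0.61), Plvap, a protein of fenestral diaphragms, 0.67 (SE 0.51), and Clec14a, an endothelial lectin, 0.50 (SE 0.48), each with a limma-trend adjusted p of 0.611 or more.

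Across the 6 libraries Pearson's r with this endothelial mean lay between 0.90 and 1.00 for 8 of the 9 genes, and was 0.31 for Apln. Among pairs of these 8 genes r was between 0.84 and 0.99, with a median of 0.97 over 28 pairs, while the 8 pairs with Apln had a median of 0.36. All genes share the same libraries, which differ in tissue makeup, and the libraries numbered 1 have the lowest endothelial means, so these values describe the 6 libraries and carry no test. Over the 4 libraries not numbered 1, r was between 0.64, for Pdgfb, and 0.99 for the 8 genes and 0.068 for Apln.

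**Figure D4:**
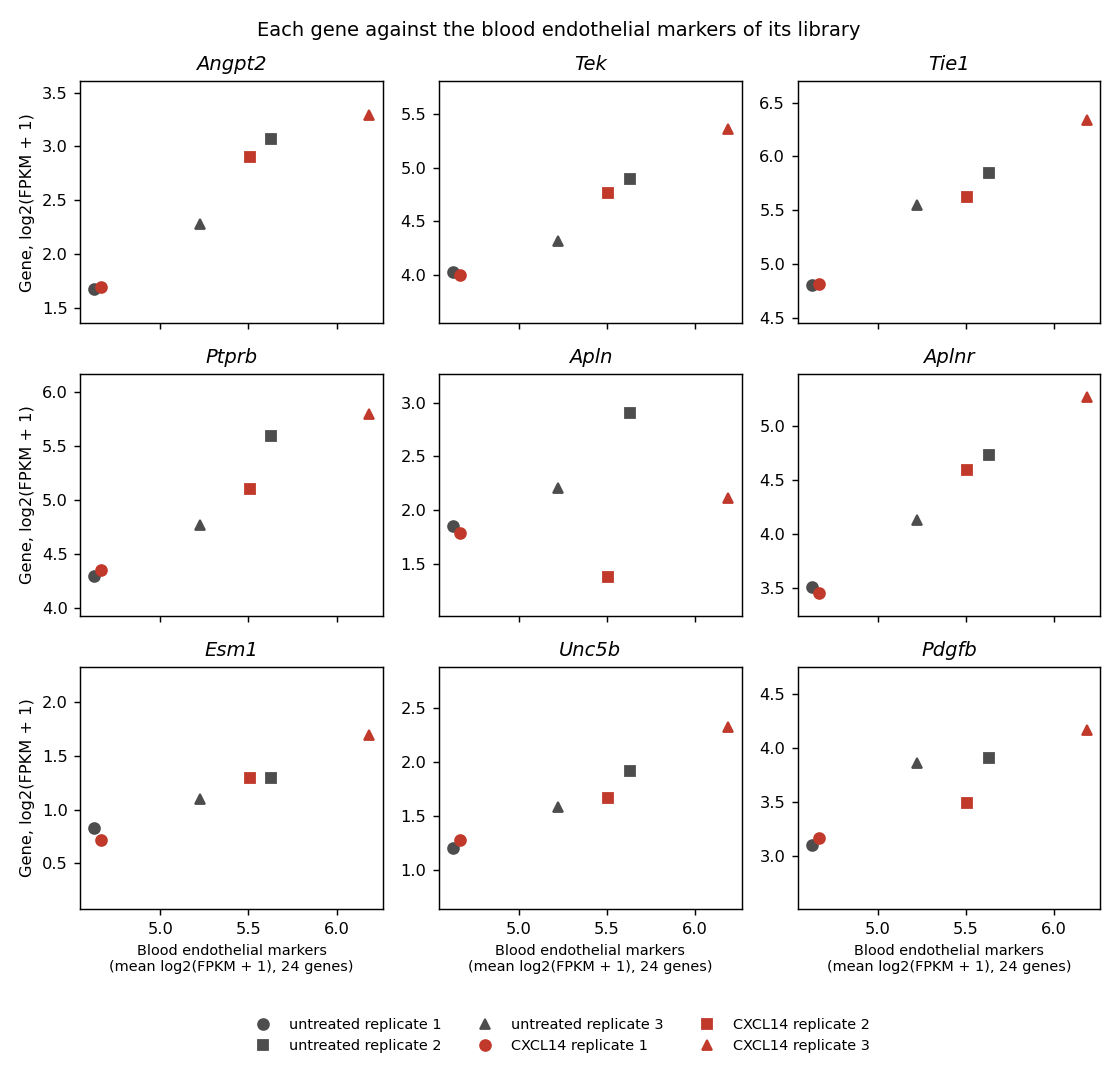
Log2(FPKM + 1) of each of the 9 tested genes (vertical axes, each spanning the same log2 width) against the mean log2(FPKM + 1) of the 24 blood endothelial markers in the same library (horizontal axis). Each point is a library; in the Apln panel CXCL14 replicate 2 is the lowest point and CXCL14 replicate 3, which has the highest endothelial mean (6.18), lies below untreated replicates 2 and 3, with r = 0.31 beside 0.90 or more in the other 8 panels.

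Each gene was then taken relative to the endothelial mean of its own library, as a difference of log2 values. Apln stood at -2.77, -2.72 and -3.02 without treatment, against -2.88, -4.13 and -4.07 with CXCL14. The CXCL14 mean was lower by 0.86 on the log2 scale, with overlapping groups because CXCL14 replicate 1 lay among the untreated libraries (exact two-sided permutation p = 0.2, 0.9 after Benjamini-Hochberg adjustment over the 9 genes). Its relative level spanned 1.41 over the 6 libraries, where the other 8 genes spanned 0.22 to 0.70. The 24 endothelial markers, each taken relative to the others, spanned 0.21 to 1.39, with a median of 0.47 and Vwf at the upper end.

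Relative levels of the remaining genes spanned less than that of Apln, from 0.22 for Tie1 to 0.66 for Pdgfb and 0.70 for Esm1. Pdgfb stood at -1.53, -1.73 and -1.37 without treatment, against -1.50, -2.02 and -2.02 with CXCL14. Differences between groups were -0.0019 for Tek, -0.0087 for Angpt2, 0.021 for Aplnr, -0.10 for Ptprb, -0.11 for Unc5b, -0.14 for Esm1 and -0.31 for Pdgfb. Exact permutation p-values for these 7 genes were between 0.3 and 1. Tie1 was the 1 gene of the 9 whose relative levels did not overlap, at 0.19, 0.22 and 0.33 untreated and 0.15, 0.11 and 0.15 with CXCL14, a difference of -0.11 (exact permutation p = 0.1, the smallest the design allows, 0.9 after adjustment), beside 0.643% of all genes. For levels not set against a reference that share was 13.1%, and the share among the endothelial markers is not given here. With Pecam1, Cdh5 and Cldn5 alone as the reference 0 of the 9 did not overlap, beside 0.53% of all genes. Without CXCL14 replicate 1 the count was 4 of 9, Apln, Pdgfb, Tie1 and Unc5b, all lower. Beside it stood 50% of all genes in either direction and 49.2% lower. The count was also 4 without both libraries numbered 1, beside 51.3%. Adding 1 to FPKM compresses low genes, which can lower relative levels of Unc5b and Esm1 where endothelial markers are high. Without the added 1, Unc5b to Tie1 was 0.0480, 0.0489 and 0.0435 untreated, against 0.0525, 0.0450 and 0.0499 with CXCL14. The log2 difference of that ratio was 0.069, and that of Esm1 to Tie1 0.035.

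Markers of other cell types that can express these genes varied too, and none of the listed markers was at 0 in every library. Of 10 pericyte markers 9 were tested, with a summed level of 31.6 to 127 FPKM untreated and 31.5 to 116 FPKM with CXCL14, and 0 passed. Higd1b, Vtn and Cox4i2, the 3 with the smallest p, had log2 fold changes of 0.19 (SE 0.35), 0.15 (SE 0.41) and -0.21 (SE 0.17). Of 9 megakaryocyte and platelet markers 7 were below 1 FPKM in every library and 2 were tested, Pf4 with -0.69 (SE 0.82) and Itga2b with 0.12 (SE 0.16), and the list summed to 5.47 to 20.8 FPKM and 3.64 to 19.6 FPKM. All 6 fibroblast markers were tested and had negative log2 fold changes, with 0 passing and a summed level of 49.2 to 528 FPKM and 40.9 to 498 FPKM. Their mean log2(FPKM + 1) came to 5.84, 5.45 and 2.81 without treatment, against 5.74, 2.60 and 2.85 with CXCL14, an order unlike that of the endothelial markers.

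Of 4 smooth muscle markers 3 were tested, summing to 26.6 to 94.2 FPKM and 31.2 to 112 FPKM, and of 7 lymphatic endothelial markers 4 were tested, summing to 24.7 to 61.1 FPKM and 27.6 to 103 FPKM. White adipocyte markers (8 of 9 tested) summed to 915 to 1945 FPKM and 986 to 3099 FPKM, macrophage markers (8 of 8) to 103 to 337 FPKM and 116 to 337 FPKM, and 3 of 4 markers of high endothelial venules were tested, the list summing to 202 to 691 FPKM and 187 to 682 FPKM. The 6 neutrophil markers had medians of 1.08 to 6.31 FPKM untreated, against 5.79, 35.5 and 50.7 FPKM with CXCL14 (replicates 1 to 3), and the 6 T-cell markers medians of 67.1 to 72.9 FPKM untreated, against 67.0, 36.9 and 33.4 FPKM. With all 6 libraries 0 markers of these lists passed, nor did any of the B-cell and luminal lists, while in the fit without CXCL14 replicate 1 the luminal gene Elf5 and 5 of the 6 neutrophil markers rose and 5 of the 6 T-cell markers fell, beside 5.18% of all genes called in either direction. Without both libraries numbered 1 the markers called by limma-trend were 4 of the 6 neutrophil markers, which rose, and 0 of the T-cell and luminal lists, beside 0.13% of all genes. The part of these shifts in the values of the 10 genes was not tested.

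Partners of the angiopoietin and Tie genes did not pass either. The partner lists share Cdh5, Kdr and Robo4 with the blood endothelial markers, Flt4 with the lymphatic, Pdgfrb with the pericyte and Pdgfra with the fibroblast markers. Of 17 adaptors, kinases, integrins and matrix partners 15 were tested, 6 with positive and 9 with negative log2 fold changes, a median of -0.14 beside -0.064 over all genes, and 0 passed with all libraries or without CXCL14 replicate 1. Grb2, an adaptor of receptor tyrosine kinases, measured 66.7 ± 3.71 FPKM untreated and 53.8 ± 7.98 FPKM with CXCL14 (SD, n = 3 each), which differed by -0.32 in log2 terms (SE 0.12, adjusted p = 0.573 by limma-trend). Its 3 CXCL14 values, 62.8, 50.9 and 47.6 FPKM, all lay below the untreated 65.3, 63.9 and 70.9 FPKM, beside 8.36% of all genes with such groups. Foxo1, a transcription factor that Tek signalling restrains and that drives Angpt2, read 75.0, 82.9 and 87.6 FPKM without treatment, against 76.2, 65.5 and 66.3 FPKM with CXCL14, a log2 fold change of -0.24 (SE 0.11). Pik3r1, a regulatory subunit of phosphoinositide 3-kinase, had -0.21 (SE 0.11). All of these are widely expressed genes, so in whole gland their levels do not speak of endothelium alone.

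Of 21 tip-cell and guidance partners 19 were tested, 11 with positive and 8 with negative values, a median of 0.10, and 0 passed. The 3 with the smallest p were Vegfa, a growth factor for endothelium, Adm, the vessel peptide adrenomedullin, and Ramp3, part of an adrenomedullin receptor. Vegfa had 0.73 (SE 0.18, adjusted p = 0.573 by limma-trend), Adm 0.37 (SE 0.24) and Ramp3 0.28 (SE 0.28). Vegfa read 7.52, 5.99 and 4.86 FPKM untreated, against 8.65, 11.7 and 12.1 FPKM with CXCL14. Its CXCL14 values all lay above the untreated ones, beside 4.74% of all genes with such groups. Without CXCL14 replicate 1 Vegfa was the 1 of the 19 that rose, at a limma-trend adjusted p of 0.0495, a share like the 5.18% of all genes called in that fit, and without both libraries numbered 1 it did not pass (adjusted p = 0.108). Of 6 apelin and PDGF partners 3 were tested and 0 passed, Pdgfd with 0.33 (SE 0.35), Pdgfra, a fibroblast receptor, with -0.50 (SE 0.61), and Pdgfrb as given above. Pdgfra, itself 1 of the 6 fibroblast markers, read 3.69, 3.03 and 0.335 FPKM untreated and 3.35, 0.421 and 0.448 FPKM with CXCL14.

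The 3 genes with the pattern most like each of the 9 were found by Pearson's r of log2(FPKM + 1) over the 6 libraries, and none of them was among the 10 genes or the listed endothelial markers. For Tek they were Lrrc8a, Fgd5 and Ebf3, for Tie1 Pik3r3, Tinagl1 and Cavin3, and for Ptprb Tjp1, which encodes a tight junction scaffold, Cdc42bpa and Cd93. Those of Angpt2 were Myo1e, Cpe and the efflux transporter gene Abcb1a, those of Aplnr the junction gene Jam2, Ch25h and Sparcl1, and those of Esm1 Clec1a, Mpzl1 and Tfpi, an inhibitor of coagulation. Unc5b was nearest to Ephb4, a receptor of venous endothelium, Bcar1 and Tbkbp1, and Pdgfb to Nova2, Oaz2 and Bmp6. In these lists r was 0.99 or more, and between 364 and 821 genes exceeded 0.9 for each of the 8, so the nearest genes are drawn from a large class. Apln had 211 genes above 0.9, led by the transcription factor gene Sp1, Ncoa6 and Ubqln2. Sp1 measured 22.4, 27.5 and 24.0 FPKM untreated and 22.1, 20.9 and 23.4 FPKM with CXCL14, a far narrower range than that of Apln.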

How the data were processed

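RNA from 6 mammary gland samples was sequenced after library preparation with an NEBNext Ultra kit, per the labels' protocols. The authors deposited 1 FPKM value per symbol and library. Bowtie2 2.2.3, HISAT2 2, HTSeq 0.6.0 and build mm8 are named without roles, per the submitters' processing notes; the sources used here state no annotation, gene lengths or strand, so reads shared with overlapping or antisense genes cannot be told apart.

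FPKM values were taken as log2(FPKM + 1) for genes that reached an FPKM of 1 in 3 or more libraries and fitted with limma-trend (limma 3.58.1, R 4.3.3), Benjamini-Hochberg adjusted, called under 0.05. A fold change on this scale understates that of low genes, and their levels relative to endothelial markers are compressed likewise. Whole reads were recovered from FPKM steps, up to a common factor, for all 17464 genes within 0.004 reads. The code was checked on simulated data. Exact permutation tests used scipy 1.17.1.

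The 10 genes and all lists were chosen with earlier results of these data known. All 10 were named, and for pathway, endothelial, pericyte and platelet lists the 3 genes with the smallest p. Replicate numbers were not used to pair the libraries, except in the replicate block of the closing section. The alternatives tried are given in the closing section.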

Additional observations from a re-analysis of the deposited data

How the results depend on the processing

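Under pseudocount 0.1, another filter, median-ratio scaling, voom on recovered reads, a replicate block and each library left out, 0 of the 9 tested genes were called. Over all genes the count was 0 except without CXCL14 replicate 1 (597) and without both libraries numbered 1 (15), an alternative added after seeing the data for this count. The cause was not tested. With the filter at 5 FPKM, Apln, Esm1 and Unc5b were not tested. Replicate numbers came with correlations of deviations of 0.69, -0.30 and 0.059 for numbers 1, 2 and 3. Not every library correlated best with its own number. The replicate block left 0 calls, and each of its 95% intervals for the 9 genes included 0. Its SE was 0.25 for Angpt2 and 0.21 for Tie1, against 0.49 and 0.42 without the block. For Apln the SE was 0.31 in both fits.

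With each library left out in turn, log2 fold changes ranged from -0.049 to 0.75 for Angpt2, -0.032 to 0.64 for Tek, -0.19 to 0.58 for Tie1, -0.16 to 0.56 for Ptprb, -0.10 to 0.81 for Aplnr, -0.073 to 0.41 for Esm1, -0.096 to 0.43 for Unc5b and -0.29 to 0.21 for Pdgfb; median-ratio scaling gave 0.066 for Pdgfb. The log2 difference of the Angpt2 to Angpt1 ratio ranged from -0.093 to 0.41. The count of genes with endothelium-relative levels that did not overlap ranged from 1 to 4, and was 0 relative to Pecam1, Cdh5 and Cldn5 and 4 without both libraries numbered 1. Relative differences ranged from -0.12 to 0.12 for Angpt2, -0.082 to 0.073 for Tek, -0.19 to 0.020 for Ptprb, -0.030 to 0.12 for Aplnr, -0.27 to 0.0082 for Esm1, -0.26 to -0.023 for Unc5b, -0.48 to -0.22 for Pdgfb, -0.14 to -0.065 for Tie1 and -1.26 to -0.64 for Apln; relative to the 3 genes they were 0.027 for Angpt2 and 0.034 for Tek, and without both libraries numbered 1 the Tek value was 0.032. Angpt1 and Esm1, with fewer than 100 reads a library, are limited by depth.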
